A study of Mus musculus with 6 samples.

Results

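The antioxidant and glutathione enzymes described here are 39 genes taken from a fixed list of symbols. The rule that lists them uses no expression value, but the list was chosen with earlier results of these data known. Each symbol was matched to a row of the count table through its Ensembl gene identifier, and all 39 were found among the 16289 rows and entered the test. They comprise 6 glutathione peroxidase and catalase genes, 3 superoxide dismutases, 7 genes of peroxiredoxins and sulfiredoxin, 6 of the thioredoxin and glutaredoxin system, 4 of glutathione synthesis and reduction, 6 glutathione transferases, 3 genes of quinone reductases and haem oxygenase, the NRF2 and KEAP1 genes, and 2 metallothioneins. RNA-seq was carried out on tibialis anterior, a muscle of the lower leg, from 6 wild-type male C57BL/6J mice aged 12 weeks. All 6 muscles had been injected with glycerol, which kills fibres and starts a cycle of repair, and were taken on day 14. The glycerol group (n = 3 mice) had the control treatment and the glycerol+melatonin group (n = 3 mice) had melatonin, and the comparison asks how the injured muscles of melatonin-treated mice differ. Uninjured muscle was not analysed here, and the sources used here do not state how melatonin was given or how much. The tissue label names tibialis anterior, while the text on RNA extraction names longissimus dorsi, a back muscle.

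Aerobic cells produce superoxide, which superoxide dismutases turn into hydrogen peroxide. Catalase then splits the peroxide, while glutathione peroxidases and peroxiredoxins reduce it with electrons from glutathione or thioredoxin. The reductases of both systems restore these carriers with NADPH. NRF2, held back by KEAP1, is the transcription factor best known for raising many of these genes under oxidant or electrophile stress. Melatonin, a hormone of the pineal gland, is reported to scavenge oxidants and to raise the expression of such enzymes, and muscle is rich in mitochondria and in myoglobin, both of which can yield oxidants.

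Several of these enzymes depend on selenocysteine, an amino acid with selenium in place of sulfur, which is inserted at a TGA codon that would otherwise end translation. The coding sequences of the principal transcripts (GENCODE M21, GRCm38) held an in-frame TGA before their last codon in 5 of the 39 members. These are Gpx1, Gpx3, Gpx4, Txnrd1 and Txnrd2. The windows are shown because the members with the highest and lowest fold changes among the peroxidases both carry this codon. In the lines that follow, capitals mark the TGA or, in Gpx7 and Gpx8, the cysteine codon that aligned with the TGA of Gpx1.
Gpx1: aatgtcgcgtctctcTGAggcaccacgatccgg
Gpx3: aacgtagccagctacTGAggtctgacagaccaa
Gpx4: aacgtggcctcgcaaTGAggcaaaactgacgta
Gpx7: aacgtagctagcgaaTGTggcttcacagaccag
Gpx8: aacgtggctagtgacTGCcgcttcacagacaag
Txnrd1: ctccagtctggctgcTGAggt
Txnrd2: actgtgactggttgcTGAggc
The TGA is codon 47 of 201 in Gpx1, codon 73 of 226 in Gpx3 and codon 73 of 197 in Gpx4. In the thioredoxin reductases it is the last codon but 1, number 498 of 499 in Txnrd1 and 526 of 527 in Txnrd2. The codon aligned with it is a TGT in Gpx7 (codon 56 of 186) and a TGC in Gpx8 (codon 79 of 209).

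None of the 39 members passed an adjusted p of 0.05 in the quasi-likelihood test of edgeR, where p was adjusted by Benjamini-Hochberg over all 16259 genes tested. Of all genes tested, 12 passed (0.0738%), 3 of them higher (0.0185%) and 9 lower (0.0554%) in glycerol+melatonin. At an unadjusted p under 0.05 there were 8 members, 3 higher (Gpx4, Mt1 and Mt2) and 5 lower (Gpx1, Cat, Txnrd1, Txnip and Gstm1), beside 19.5% of all genes (10.1% higher and 9.39% lower). The libraries of the groups did not overlap in 9 members, 3 of them higher and 6 lower in glycerol+melatonin, beside 26.0% of all genes. Both shares among the members, 20.5% and 23.1%, are near those of all genes, so they give no result for the members as a set. DESeq2 called 3 members, all lower in glycerol+melatonin (Gpx1, Gstm1 and Cat), beside 5.01% of the genes it tested (2.21% higher and 2.8% lower). limma-voom with sample weights called 1, Gpx1, beside 1.22%, and limma-voom without weights called 0 members. The members divided almost evenly in direction, with 20 above 0, 19 below 0 and a median of 0.11 on the log2 scale, against 51.7% of genes above 0 and a median of 0.016 over all genes. Fold changes are given throughout as glycerol+melatonin over glycerol on the log2 scale with their standard errors (SE), and levels as counts per 1000000 counts (CPM) with the SD of 3 mice.

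**Figure D1:**
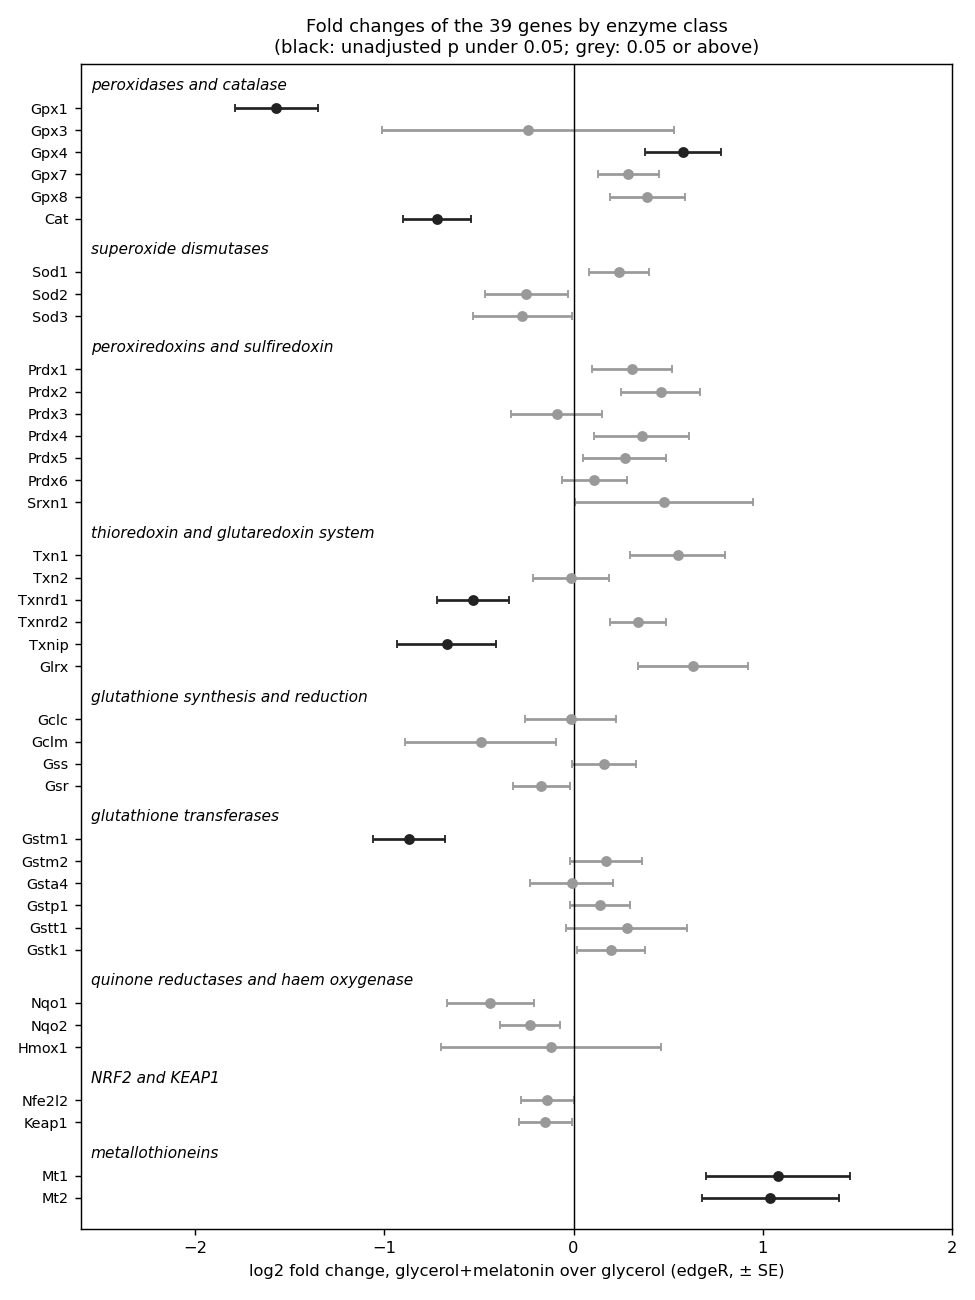
Log2 fold change (glycerol+melatonin over glycerol) of each of the 39 members, grouped by enzyme class; points are edgeR estimates, bars are 1 SE, and black marks an unadjusted p under 0.05. Gpx1 lies lowest at -1.57 and the metallothioneins Mt1 and Mt2 lie highest at 1.08 and 1.04, while 20 members lie above 0 and 19 below.

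Total counts ran from 39310361 to 48879045 per library, and the TMM factors that scale library composition ran from 0.8691 to 1.141. Scaling by library size alone moved the median of all genes from 0.016 to 0.23, so fold changes are read relative to that median. For 13 members (Gpx3, Prdx3, Prdx6, Txn2, Gclc, Gsr, Gstm2, Gsta4, Gstp1, Gstk1, Hmox1, Nfe2l2 and Keap1) the sign of the fold change turned in at least 1 alternative scaling, model or left-out library, and it is given for them as a value only. The muscle label was checked against 12 muscle fibre markers, which any skeletal muscle expresses and which summed to between 106724.5 and 180479.4 CPM in every library, with Acta1, skeletal actin, between 24029.9 and 41229.4 CPM. Since the libraries are from whole muscle, fewer cells of a type and less RNA per cell cannot be told apart. The series text calls the libraries of each group biological replicates, so p-values measure the spread between mice.

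The peroxidases and catalase held both the lowest fold change and the most expressed gene per length among the members. Gpx1, the cytosolic and mitochondrial glutathione peroxidase that reduces hydrogen peroxide, is ENSMUSG00000063856 at chr9:108338903-108340343 on the plus strand. Its level was 137, 133 and 142 CPM in the 3 glycerol mice and 33.6, 59.8 and 45.3 CPM in the 3 glycerol+melatonin mice. All 3 glycerol+melatonin mice were below every glycerol mouse, and the means were 137 ± 4.72 and 46.2 ± 13.2 CPM (SD, n = 3). The log2 fold change was -1.57 ± 0.22 (SE), a level 2.97-fold lower, with an unadjusted p of 6.58e-05 and an edgeR adjusted p of 0.0594. The adjusted p was 2.28e-08 with DESeq2 and 0.0349 with limma-voom and sample weights, and over all alternatives it ranged from 2.28e-08 to 0.191 while the log2 fold change ranged from -1.86 to -1.34. Gpx1 shares no exon bases with another annotated gene.

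Gpx4, the phospholipid hydroperoxide peroxidase that protects membranes from lipid peroxidation, went the other way. The gene, ENSMUSG00000075706, lies at chr10:80047166-80056439 on the plus strand. Its level was 224, 257 and 348 CPM in the glycerol mice and 420.0, 396 and 421 CPM in the glycerol+melatonin mice. The groups did not overlap, and the glycerol mice spread more widely, with means of 276 ± 63.9 and 412 ± 14.3 CPM (SD, n = 3). The log2 fold change was 0.58 ± 0.20 (1.49-fold higher, unadjusted p = 0.0181, adjusted p = 0.189 in edgeR), and a correction for transcript length lowered it to 0.32 (adjusted p = 0.345 in edgeR). In raw counts within a library, a ratio chosen after the values were seen, Gpx1 stood at 0.612, 0.516 and 0.409 of Gpx4 in the glycerol mice and at 0.08, 0.151 and 0.108 in the glycerol+melatonin mice. The means of this ratio were 0.512 ± 0.102 and 0.113 ± 0.0359 (SD, n = 3), with no overlap between the groups. The smallest p that an exact two-sided permutation test allows for 3 against 3 is 0.1, so single values of this kind cannot reach 0.05. The deposited rows also hold 1 named Gpx4 pseudogene, and reads of near-identical copies could have been shared in counting.

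Cat encodes catalase, the peroxisomal enzyme that splits hydrogen peroxide without an outside electron donor, and is ENSMUSG00000027187 at chr2:103453849-103485160 on the minus strand. Its level was 146, 118 and 101 CPM in the glycerol mice and 80.4, 68.2 and 72.4 CPM in the glycerol+melatonin mice. The highest glycerol+melatonin mouse was below the lowest glycerol mouse, with means of 122 ± 22.8 and 73.7 ± 6.22 CPM (SD, n = 3). Its log2 fold change was -0.72 ± 0.18 (1.65-fold lower, unadjusted p = 0.00316, adjusted p = 0.14 in edgeR). DESeq2 gave an adjusted p of 0.0168, and over the alternatives the adjusted p ranged from 0.0168 to 0.42.

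Gpx3, the secreted plasma peroxidase, varied more between mice than between groups. Its level was 43.3, 271 and 302 CPM in the glycerol mice and 40.3, 183 and 299.5 CPM in the glycerol+melatonin mice. In each group 1 mouse stood far below the other two, so the highest value was 6.97 times the lowest in glycerol and 7.43 times in glycerol+melatonin. The log2 fold change of -0.24 ± 0.77 had an edgeR adjusted p of 0.892. Gpx7 and Gpx8, the peroxidases of the endoplasmic reticulum that carry cysteine in place of selenocysteine, had log2 fold changes of 0.29 ± 0.16 and 0.39 ± 0.20 with edgeR adjusted p-values of 0.346 and 0.324. Gpx7 lay between 13.0 and 18.1 CPM and Gpx8 between 14.8 and 25.2 CPM over the 6 mice. Of the 6 genes in the class, 3 were above 0 and 3 below, with a median of 0.027. The 5 members with an in-frame TGA were likewise divided, with Gpx4 and Txnrd2 above 0 and Gpx1, Gpx3 and Txnrd1 below, and a median of -0.24.

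**Figure D2:**
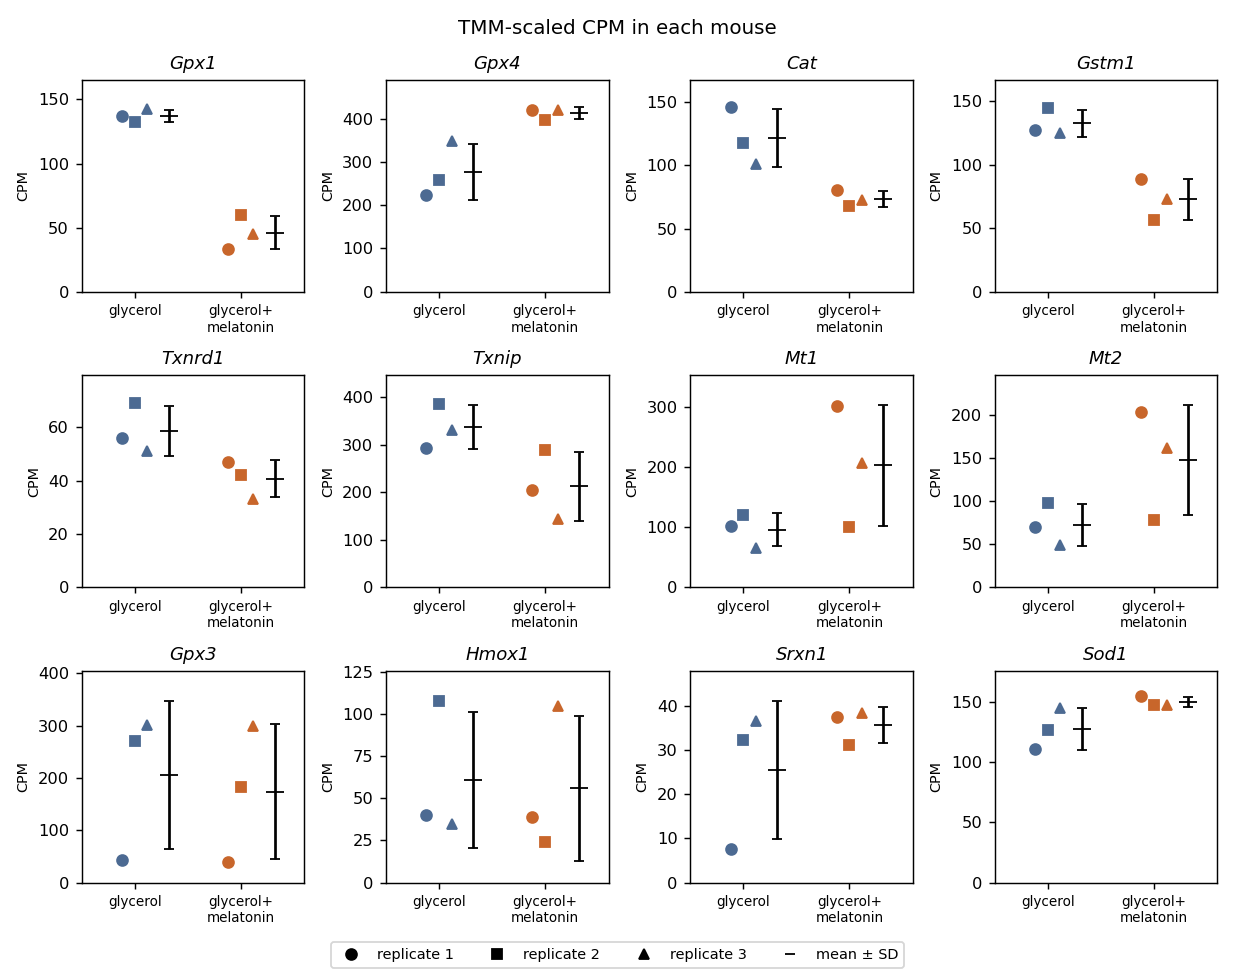
Level in CPM (linear axis) of single members in each mouse, with glycerol and glycerol+melatonin side by side; points are mice, and the bars beside them are the mean ± SD (n = 3). Gpx1, Cat and Gstm1 are lower in every glycerol+melatonin mouse than in any glycerol mouse, Gpx4 is higher in every one, and Mt1 and Mt2 overlap through 1 glycerol+melatonin mouse.

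The superoxide dismutases differed little, and 0 of the 3 reached an unadjusted p under 0.05. Sod1, the cytosolic copper-zinc enzyme, was at 110.4, 127 and 145 CPM in the glycerol mice and 155, 148 and 148 CPM in the glycerol+melatonin mice. The groups did not overlap, by a narrow gap, and the log2 fold change was 0.24 ± 0.16 (adjusted p = 0.426 in edgeR). Sod2, the manganese enzyme of the mitochondrial matrix, was at 248, 241 and 200.3 CPM in glycerol and 245, 195 and 140.4 CPM in glycerol+melatonin. The groups overlapped, with a log2 fold change of -0.25 ± 0.22 (adjusted p = 0.549 in edgeR). Sod3, the secreted enzyme bound to the extracellular matrix, was at 69.5, 37.8 and 50.6 CPM in glycerol and 37.2, 37.3 and 56.6 CPM in glycerol+melatonin. Its groups overlapped too, and the log2 fold change was -0.27 ± 0.26 (adjusted p = 0.582 in edgeR). With 1 of 3 genes above 0, the class median was -0.25.

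Of the 7 genes of peroxiredoxins and sulfiredoxin, 6 had a log2 fold change above 0, with a class median of 0.31, and 0 of them reached an unadjusted p under 0.05. Peroxiredoxins are abundant thiol peroxidases, and sulfiredoxin repairs them once their cysteine is over-oxidised. The cytosolic Prdx1 and Prdx2 were at 84.6 to 158 CPM and 106 to 187 CPM over the 6 mice, with log2 fold changes of 0.31 ± 0.21 and 0.46 ± 0.21. Their edgeR adjusted p-values were 0.42 and 0.278. Prdx4 of the endoplasmic reticulum (0.36 ± 0.25) and Prdx5 (0.27 ± 0.22), which is found in mitochondria, peroxisomes and cytosol, were also above 0. Prdx3, the peroxiredoxin of the mitochondrial matrix, was at 130.5, 161 and 165 CPM in glycerol and 178, 157 and 93.9 CPM in glycerol+melatonin. These values overlapped, and the log2 fold change was -0.09 ± 0.24 (adjusted p = 0.869 in edgeR). Prdx6, which uses glutathione rather than thioredoxin, was at 62.0, 62.6 and 67.5 CPM in glycerol and 81.7, 69.8 and 55.9 CPM in glycerol+melatonin. Its groups overlapped, with a log2 fold change of 0.11 ± 0.17 (adjusted p = 0.753 in edgeR). Srxn1, the sulfiredoxin gene, was at 7.63, 32.3 and 36.5 CPM in glycerol and 37.4, 31.0 and 38.4 CPM in glycerol+melatonin. One glycerol mouse was low and the other 5 mice lay close together. The log2 fold change was 0.48 ± 0.47 with that mouse and 0.05 without it, or 0.90 with limma-voom and sample weights (adjusted p = 0.586 in edgeR with all mice). On the opposite strand, Prdx2 shares 177 exon bases with Rnaseh2a, which had a log2 fold change of 0.19 ± 0.17, and 173 with the immediate-early gene Junb (0.78 ± 0.20). Prdx5 shares 409 with Trmt112 (0.40 ± 0.16). The class median was 0.50 with scaling by library size alone and 0.14 with the correction for transcript length.

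In the thioredoxin and glutaredoxin system, 3 of the 6 genes lay above 0 (Txn1, Txnrd2 and Glrx) and 3 below (Txnrd1, Txnip and Txn2), with a median of 0.16, and none passed the adjusted threshold in edgeR. Txnrd1, the cytosolic reductase that recharges thioredoxin with NADPH (ENSMUSG00000020250, chr10:82833951-82897712, plus strand), was at 55.8, 69.2 and 51.2 CPM in the glycerol mice. In the glycerol+melatonin mice it was at 46.9, 42.0 and 33.0 CPM, so the groups did not overlap. Its log2 fold change was -0.53 ± 0.19 (1.44-fold lower, unadjusted p = 0.0202, adjusted p = 0.194 in edgeR), or -0.32 with library size alone. Txnip, the arrestin-like protein that binds and inhibits thioredoxin and limits glucose uptake (ENSMUSG00000038393, chr3:96557957-96561883, plus strand), was at 294, 387 and 332 CPM in glycerol. It was at 204, 289.6 and 145 CPM in glycerol+melatonin, with a gap of a few CPM between the closest mice of the groups. For Txnip the log2 fold change was -0.67 ± 0.26 (1.59-fold lower, unadjusted p = 0.0312, adjusted p = 0.219 in edgeR). Txnrd2, the mitochondrial reductase, was at 13.1, 13.8 and 15.5 CPM in glycerol and 18.7, 18.6 and 16.3 CPM in glycerol+melatonin. The groups did not overlap, and the log2 fold change was 0.34 ± 0.15 (1.26-fold higher, unadjusted p = 0.0582, adjusted p = 0.271 in edgeR). Txn1, the cytosolic thioredoxin, had a log2 fold change of 0.55 ± 0.25 (adjusted p = 0.274 in edgeR), and Glrx, a glutaredoxin that removes glutathione from protein thiols, one of 0.63 ± 0.29 (adjusted p = 0.281 in edgeR). Txn2, the mitochondrial thioredoxin, lay at -0.015 ± 0.20 (adjusted p = 0.975 in edgeR). Txnip shares 606 exon bases with the opposite-strand gene Gm15441, and as the sources used here do not state whether counting used strand, reads of such pairs cannot be told apart. Gm15441 had a log2 fold change of 0.10 ± 0.47.

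Genes for making and recycling glutathione had small differences, with 0 of the 4 at an unadjusted p under 0.05. Gclc, the catalytic subunit of the rate-limiting glutamate-cysteine ligase, was at 19.3, 16.9 and 12.9 CPM in glycerol and 13.9, 13.3 and 21.4 CPM in glycerol+melatonin. The groups overlapped fully, with a log2 fold change of -0.015 ± 0.24 (adjusted p = 0.98 in edgeR). Gclm, the modifier subunit of the same enzyme, was at 20.7, 12.6 and 6.32 CPM in glycerol and 10.8, 6.44 and 11 CPM in glycerol+melatonin. It too overlapped, at -0.49 ± 0.40 (adjusted p = 0.515 in edgeR), and its log2 fold change was -0.0084 without the highest glycerol mouse. Gsr, the reductase that regenerates glutathione from its disulfide, was at 18.1, 18.9 and 17.4 CPM in glycerol and 15.3, 17.4 and 15.6 CPM in glycerol+melatonin. Before rounding, the closest mice of the groups did not overlap, and the log2 fold change was -0.17 ± 0.15 (unadjusted p = 0.27, adjusted p = 0.528 in edgeR), or 0.047 with scaling by library size alone. Gss, the synthetase that adds glycine, had a log2 fold change of 0.16 ± 0.17 (adjusted p = 0.631 in edgeR). Gclm shares 296 exon bases with the opposite-strand gene Gm17494 (0.87 ± 0.30) and Gss shares 395 with Acss2 (0.03 ± 0.14) and 385 with Gssos2 (0.73 ± 0.40). The class median over the 4 genes was -0.093.

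Among the 6 glutathione transferases, which couple glutathione to electrophiles, Gstm1 had the largest difference. Gstm1, a mu-class enzyme (ENSMUSG00000058135, chr3:108012255-108017973, minus strand), was at 128, 145 and 125 CPM in the glycerol mice and 88.9, 56.2 and 73.1 CPM in the glycerol+melatonin mice. Every glycerol+melatonin mouse was below every glycerol mouse, with means of 133 ± 10.6 and 72.7 ± 16.3 CPM (SD, n = 3). Its log2 fold change was -0.87 ± 0.19 (1.82-fold lower, unadjusted p = 0.00177, adjusted p = 0.132 in edgeR). DESeq2 gave an adjusted p of 0.00592, and over the alternatives the adjusted p ranged from 0.00592 to 0.42. Its neighbour Gstm2, of the same class, was at 34.7 to 55.7 CPM over the 6 mice and had a log2 fold change of 0.17 ± 0.19 (adjusted p = 0.638 in edgeR). Mu-class genes are related genes in a cluster. The sources used here do not state how reads with several matches were counted, so the split between these genes is uncertain. Gstp1, the pi-class enzyme and the highest per kb of the 6 transferases among the members, was at 115, 122 and 145 CPM in glycerol and 154, 144 and 124 CPM in glycerol+melatonin. Those values overlapped, with a log2 fold change of 0.14 ± 0.16 (adjusted p = 0.654 in edgeR). Gstt1 (0.28 ± 0.32), the mitochondrial and peroxisomal Gstk1 (0.20 ± 0.18) and Gsta4 (-0.009 ± 0.22), which clears the lipid peroxidation product hydroxynonenal, had edgeR adjusted p-values of 0.649, 0.554 and 0.986. The class median was 0.16, and -0.12 after the correction for transcript length.

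The 3 genes of quinone reductases and haem oxygenase all lay below 0 (Hmox1 at 0.15 with scaling by library size alone), and 0 reached an unadjusted p under 0.05. Nqo1, the NADPH-dependent quinone reductase often read as a marker of NRF2 activity, was at 6.65, 10.2 and 8.3 CPM in glycerol and 6.76, 6.88 and 4.81 CPM in glycerol+melatonin. The groups overlapped, with a log2 fold change of -0.44 ± 0.23 (unadjusted p = 0.0869, adjusted p = 0.321 in edgeR). Nqo2, a related reductase known to bind melatonin, was at 32.4, 35.3 and 41.4 CPM in glycerol and 30.4, 34.8 and 27.8 CPM in glycerol+melatonin. It overlapped too, at -0.23 ± 0.16 (adjusted p = 0.446 in edgeR), and it shares 762 exon bases with Serpinb6a on the opposite strand, a gene with a log2 fold change of 0.42 ± 0.23. Hmox1, the inducible enzyme that breaks down haem, was at 40.0, 108 and 34.9 CPM in glycerol and 38.8, 23.9 and 105 CPM in glycerol+melatonin. Each group had 1 high mouse and 2 low ones, and the log2 fold change of -0.12 ± 0.58 had an edgeR adjusted p of 0.928. Macrophages are rich in Hmox1, and the summed level of 12 macrophage markers was 652, 692 and 928 CPM in the glycerol mice and 656, 913 and 667 CPM in the glycerol+melatonin mice, and their part in the Hmox1 levels was not tested.

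The regulators themselves differed little. Nfe2l2, which encodes NRF2, was at 60.8, 61.8 and 51.1 CPM in glycerol and 54.4, 53.4 and 49.9 CPM in glycerol+melatonin, with a log2 fold change of -0.14 ± 0.14 (adjusted p = 0.61 in edgeR). Keap1, the adaptor that delivers NRF2 to a ubiquitin ligase, was at 48.2, 57.7 and 56.2 CPM in glycerol and 49.9, 49.2 and 46.8 CPM in glycerol+melatonin. Its log2 fold change was -0.15 ± 0.14 (adjusted p = 0.567 in edgeR), and both regulators overlapped between the groups. Transcript levels do not measure NRF2 protein, which is controlled mainly by its breakdown. Of 10 NRF2 partners and repressors, 5 lay above 0 and 5 below, with a median of -0.06, 0 called by edgeR and 2 called lower by DESeq2. Those were Nfe2l1, a related factor, and Cul3, the scaffold of the ligase that KEAP1 serves. Nfe2l1 was at 91.5, 107 and 62.3 CPM in glycerol and 38.2, 29.7 and 25.0 CPM in glycerol+melatonin (log2 fold change -1.49 ± 0.24, adjusted p = 0.0788 in edgeR). Cul3 had a log2 fold change of -0.91 ± 0.22 (adjusted p = 0.14 in edgeR) and Mafg, a small MAF partner of NRF2, one of 0.41 ± 0.15 (adjusted p = 0.198 in edgeR). Of 19 tested genes among 20 other NRF2 targets, 13 lay above 0 and 6 below, with a median of 0.17. At an unadjusted p under 0.05 there were 2 higher and 2 lower, and edgeR called 0. DESeq2 called 1 higher (Osgin1, adjusted p = 1.02e-05) and 1 lower (Me1, adjusted p = 0.0464). limma-voom with sample weights called Osgin1 (adjusted p = 0.0415). Osgin1, an oxidant-induced growth inhibitor, was at 5.39, 4.79 and 3.92 CPM in glycerol and 11.4, 10.8 and 16.9 CPM in glycerol+melatonin (log2 fold change 1.47 ± 0.23, adjusted p = 0.0788 in edgeR). Me1, malic enzyme, which makes NADPH, had a log2 fold change of -0.86 ± 0.26 (adjusted p = 0.174 in edgeR), and Blvrb, a biliverdin reductase, one of 0.47 ± 0.17 (adjusted p = 0.208 in edgeR).

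The antioxidant response element, the DNA site of NRF2, was searched as its core TGACNNNGC on both strands of the promoter windows of RefSeq (GRCm38.p6, 250 bases before to 50 after each start). Windows were found for 33 of the 39 members. The core was in at least 1 window of 7 of those 33 (21.2%), namely Gclm, Mt2, Nfe2l2, Prdx1, Sod1, Srxn1 and Txnrd1, and in 17.1% of 41 member windows against 12.4% of all 32851 windows. In these 7 members the log2 fold changes ran from -0.53 for Txnrd1 to 1.04 for Mt2, so members with the core lay on either side of 0. A match is a description of the letters in the window only.

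The metallothioneins, small cysteine-rich proteins that bind zinc and copper and react readily with oxidants, had the highest fold changes of the members. Mt1 (ENSMUSG00000031765, chr8:94179082-94180327) and Mt2 (ENSMUSG00000031762, chr8:94172664-94173568) lie on the plus strand, with 5513 bases between the end of Mt2 and the start of Mt1. Both are known to respond to zinc through metal response elements and to glucocorticoids. The promoter windows of Mt1 (chr8:94178839-94179138) and Mt2 (chr8:94172368-94172667) from RefSeq on GRCm38.p6 are printed on the plus strand because these neighbours varied together across the mice. Capitals mark the metal response element core TGCACNC or TGCGCNC on either strand.
Mt1: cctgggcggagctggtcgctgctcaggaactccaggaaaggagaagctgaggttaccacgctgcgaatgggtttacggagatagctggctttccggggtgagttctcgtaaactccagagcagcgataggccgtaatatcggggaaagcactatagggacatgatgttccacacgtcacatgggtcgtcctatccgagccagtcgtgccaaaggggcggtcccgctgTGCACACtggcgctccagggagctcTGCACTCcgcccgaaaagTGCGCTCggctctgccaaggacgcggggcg
Mt2: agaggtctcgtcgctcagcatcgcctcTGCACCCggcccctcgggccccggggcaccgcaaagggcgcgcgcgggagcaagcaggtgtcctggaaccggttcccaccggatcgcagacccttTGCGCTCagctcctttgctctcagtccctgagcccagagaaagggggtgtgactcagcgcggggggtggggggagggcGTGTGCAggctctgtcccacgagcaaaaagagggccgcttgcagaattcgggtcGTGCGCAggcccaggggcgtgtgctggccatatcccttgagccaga
The Mt1 window held 3 matches and the Mt2 window 4. At least 1 match was in 25.7% of all windows, at least 3 in 1.97% and at least 4 in 0.517%.

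Mt1 was at 101, 121 and 65.7 CPM in the glycerol mice and 302, 100.3 and 206 CPM in the glycerol+melatonin mice. In glycerol+melatonin 2 mice stood above every glycerol mouse and the other lay among them, so the groups overlapped, with means of 95.9 ± 27.9 and 203 ± 101 CPM (SD, n = 3). The log2 fold change was 1.08 ± 0.38 (2.11-fold higher, unadjusted p = 0.0216, adjusted p = 0.197 in edgeR). It was 0.68 without the highest glycerol+melatonin mouse and 0.65 with limma-voom and sample weights, which gave 0.65 for Mt2 as well. Mt2 was at 69.6, 97.2 and 49.2 CPM in glycerol and 203, 77.8 and 162 CPM in glycerol+melatonin. The same 2 mice stood above the glycerol group, and the log2 fold change was 1.04 ± 0.36 (2.05-fold higher, unadjusted p = 0.0207, adjusted p = 0.196 in edgeR). The ratio of Mt1 to Mt2 raw counts, chosen after the values were seen, was 1.46, 1.24 and 1.34 in the glycerol mice and 1.49, 1.29 and 1.28 in the glycerol+melatonin mice. Its means were 1.35 ± 0.108 and 1.35 ± 0.117 (SD, n = 3), so the pair kept nearly the same proportion in all 6 mice while their levels differed several-fold. Mt2 shares 432 of its 588 exon bases with the opposite-strand gene Gm45774, which had a log2 fold change of 2.05 ± 0.52 (adjusted p = 0.141 in edgeR). Gm45774 was at 10.2, 17.9 and 9.8 CPM in glycerol and 73.9, 15.9 and 66.8 CPM in glycerol+melatonin. Reads of Mt2 and Gm45774 cannot be told apart, since the use of strand in counting is not stated. Mt1 shares no exon bases with another gene.

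Other genes of zinc and glucocorticoid biology were divided in direction. Of 12 zinc and metal handling genes, 7 lay above 0 and 5 below, with a median of 0.071, 0 called by edgeR and 1 in each direction at an unadjusted p under 0.05. Atox1, a copper chaperone, was at 14.2, 14.2 and 29.7 CPM in glycerol and 32, 45.8 and 37.8 CPM in glycerol+melatonin (log2 fold change 0.99 ± 0.30, adjusted p = 0.173 in edgeR). Atp7a, a copper pump, was at low levels of 1.51, 1.34 and 0.735 CPM in glycerol and 0.297, 0.461 and 0.383 CPM in glycerol+melatonin. Its log2 fold change was -1.63 ± 0.39 (adjusted p = 0.136 in edgeR). DESeq2 called Atox1 higher (adjusted p = 0.0366) and Atp7a lower (adjusted p = 0.0192). Of 12 glucocorticoid response genes, 6 lay above 0 and 6 below, with a median of 0.049 and 0 called by edgeR. Klf9, a zinc-finger factor induced by glucocorticoids, was at 119, 129 and 59.3 CPM in glycerol and 50.8, 37.1 and 28 CPM in glycerol+melatonin (log2 fold change -1.41 ± 0.32, adjusted p = 0.134 in edgeR). Dusp1, a phosphatase induced by glucocorticoids and by stress, was at 95, 107 and 80.3 CPM in glycerol and 167, 152 and 208 CPM in glycerol+melatonin (log2 fold change 0.90 ± 0.19, adjusted p = 0.122 in edgeR). Nr3c1, the glucocorticoid receptor gene, had a log2 fold change of -0.44 ± 0.18 (adjusted p = 0.226 in edgeR). Among these 12 genes DESeq2 called Klf9 lower (adjusted p = 0.00127) and Dusp1 higher (adjusted p = 0.0027). limma-voom with sample weights called Klf9 (adjusted p = 0.0488). All 14 genes of an immediate-early list, which does not hold Dusp1, lay above 0 (median 0.79), beside 51.7% of all genes. At an unadjusted p under 0.05 in edgeR 10 were higher, beside 10.1% of all genes, and edgeR called 0 of the 14. DESeq2 called 9 of them higher, beside 2.21% of the genes it tested. limma-voom with sample weights called 6 higher, beside 0.615%. The genes of this list, known to respond within minutes to stress, summed to 669, 782 and 629 CPM in glycerol. They summed to 1020.2, 1232 and 1021 CPM in glycerol+melatonin, and their part in the metallothionein levels was not tested.

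Levels were compared between genes per kilobase of the longest annotated transcript. Gpx4 was the highest member, at 278 ± 64.2 CPM per kb in glycerol and 414 ± 14.4 CPM per kb in glycerol+melatonin. Mt2 (141 ± 47.2 and 289 ± 124.9 CPM per kb), Gstp1 (155 ± 19.1 and 171 ± 18.4) and Mt1 (88.4 ± 25.7 and 187 ± 92.8) came next over the 6 mice. Gpx1 stood at 128 ± 4.4 CPM per kb in glycerol, close to Gpx3 at 129 ± 88.6 and Txnip at 119 ± 16.5, and at 43.1 ± 12.3 in glycerol+melatonin. These neighbours in the order did not differ beyond their spread in glycerol. Within the peroxidases the order in both groups was led by Gpx4, with Cat at 46.5 ± 8.72 and 28.2 ± 2.38 CPM per kb. Gclm was the lowest member, at 2.36 ± 1.29 and 1.69 ± 0.462 CPM per kb. The place of Sod1 depended on the transcript used, since it ranked 19 of 39 with its longest transcript and 3 with its principal one.

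**Figure D3:**
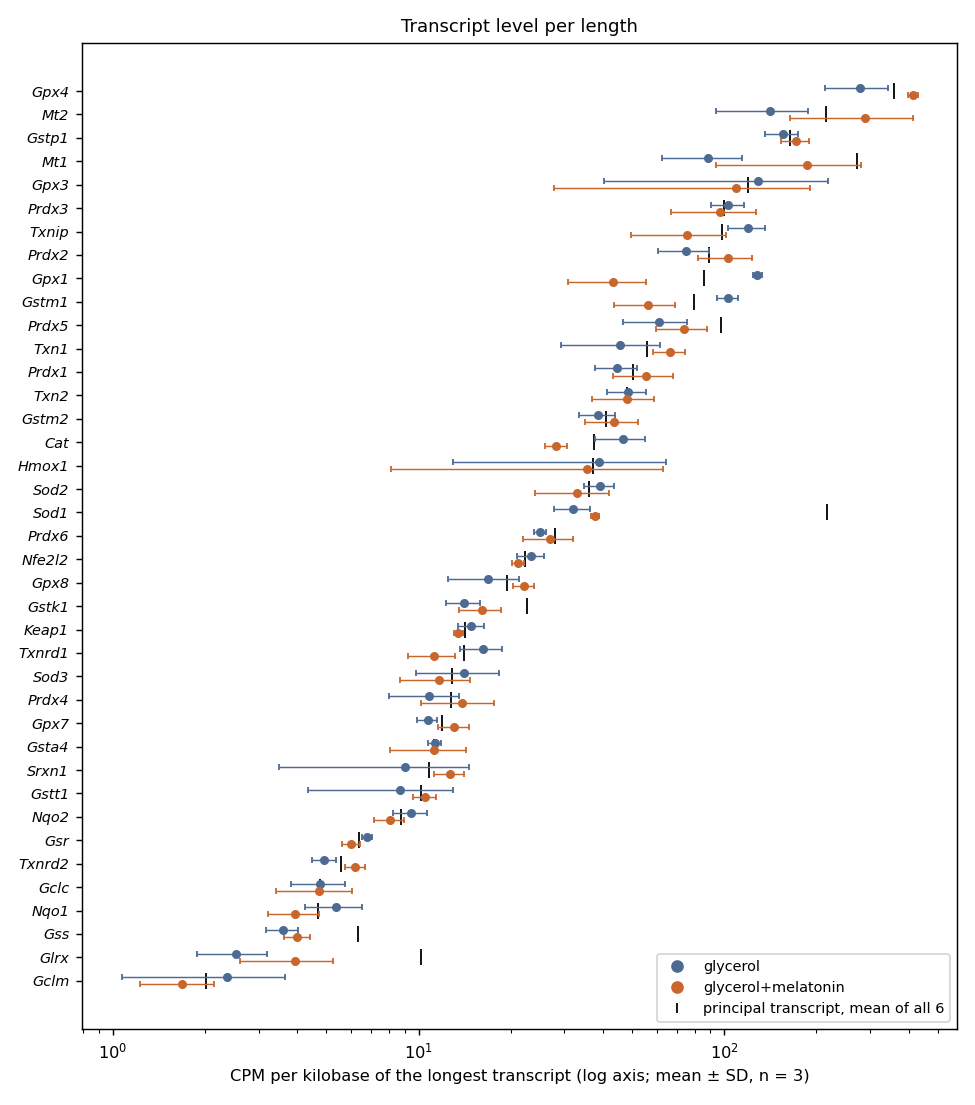
Mean level of each member in CPM per kb of the longest transcript (log axis) in glycerol and in glycerol+melatonin, ordered by the mean of all 6 mice; bars are the SD of 3 mice and vertical ticks give that mean per kb of the principal transcript. Gpx4 is the highest member in both groups and Gclm the lowest, and Gpx1 shows the widest gap between the groups among the enzymes.

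Class averages across the mice were summarised as the mean of log2 CPM centred on each gene's mean. For the metallothioneins this was -0.43, -0.059 and -0.99 in the glycerol mice and 1.13, -0.35 and 0.70 in the glycerol+melatonin mice, so 1 mouse of glycerol+melatonin was below 0. The peroxiredoxins and sulfiredoxin were at -0.51, -0.12 and 0.18 in the glycerol mice, against 0.33, 0.20 and -0.077 with melatonin. The groups overlapped, since the lowest glycerol+melatonin mouse was below the highest glycerol mouse. The peroxidases and catalase were at -0.24, 0.17 and 0.38 in the glycerol mice, against -0.47, 0.056 and 0.11 with melatonin, so the opposite directions of Gpx1 and Gpx4 are not seen in the class average. NRF2 and KEAP1 were at 0.027, 0.17 and 0.015 in the glycerol mice, against -0.026, -0.05 and -0.13 with melatonin, a small separation whose median fold change turned to 0.067 with scaling by library size alone. All 39 members together were at -0.16, 0.065 and 0.045 in the glycerol mice, against 0.084, -0.053 and 0.015 with melatonin, with the groups overlapping. Their summed level was 2767, 3297 and 3308 CPM in glycerol and 3421, 3029 and 3098.5 CPM in glycerol+melatonin. By place in the cell, the 4 members listed as mitochondrial (Sod2, Prdx3, Txn2 and Txnrd2) had a median log2 fold change of -0.052, with 1 above 0. That list leaves out Prdx5 (0.27), Gstk1 (0.20) and Gpx1 (-1.57), which are found in mitochondria and elsewhere. The 3 members of the endoplasmic reticulum (Gpx7, Gpx8 and Prdx4) had a median of 0.36, with all 3 above 0. For the 2 secreted members (Gpx3 and Sod3) the median was -0.25, with both below 0. None of these members was called by edgeR.

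**Figure D4:**
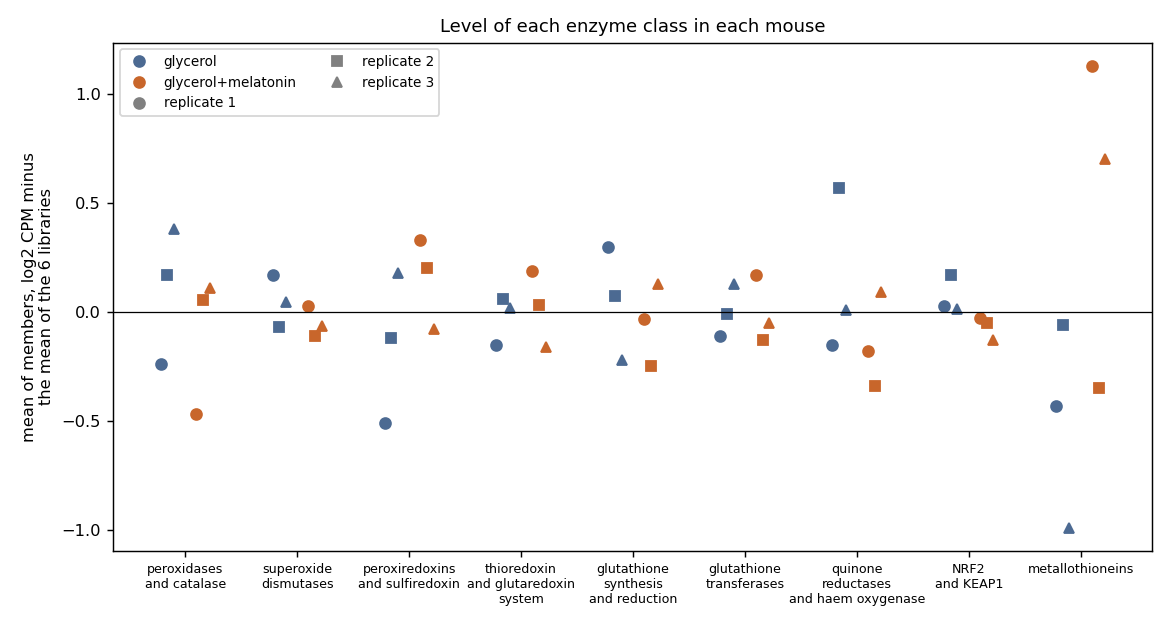
Mean centred log2 CPM of each enzyme class in each mouse, with 0 the mean of the 6 mice; points are mice, coloured by group and shaped by replicate. The metallothioneins spread from -0.99 to 1.13, and the other 8 classes lie between -0.51 and 0.57.

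Genes that feed or surround these enzymes were counted from lists of the same biology, and edgeR called 0 genes in each of them. DESeq2 called 1 gene lower in NADPH supply (Me1), 1 among the oxidant sources (Nox4) and 1 among the other selenoproteins (Selenoi). It called 1 higher among the other thioredoxin-fold enzymes (Txnl4a). Of 15 tested genes among 20 other glutathione transferases, 8 lay above 0 and 7 below (median 0.034), and 1 reached an unadjusted p under 0.05. That gene, Mgst1, a membrane-bound transferase, had a log2 fold change of -0.62 ± 0.23 (adjusted p = 0.208 in edgeR). In glutathione breakdown and cysteine supply, 4 of 14 tested genes lay above 0 and 10 below (median -0.073), and Chac1, which degrades glutathione, had a log2 fold change of -0.75 ± 0.30 (adjusted p = 0.23 in edgeR). Among 13 genes of NADPH supply, 4 lay above 0 and 9 below (median -0.094), with 3 lower at an unadjusted p under 0.05. These were Me1, Nadk2, the mitochondrial NAD kinase (-0.75 ± 0.24, adjusted p = 0.178 in edgeR), and H6pd, the hexose-6-phosphate dehydrogenase of the endoplasmic reticulum (-0.38 ± 0.16, adjusted p = 0.238 in edgeR).

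Of 12 tested NADPH oxidases and other oxidant sources, 6 lay above 0 and 6 below (median -0.045). At an unadjusted p under 0.05 in edgeR, 1 was higher and 3 lower. Nox4, an oxidase that yields mainly hydrogen peroxide, was at 15.2, 14.5 and 15.4 CPM in glycerol and 9.3, 9.63 and 11.2 CPM in glycerol+melatonin. All 3 glycerol+melatonin mice were below the glycerol mice, and the log2 fold change was -0.58 ± 0.16 (adjusted p = 0.15 in edgeR). Cyba, an oxidase subunit, and Maob, a monoamine oxidase, had log2 fold changes of 0.62 ± 0.20 and -0.81 ± 0.29 (adjusted p = 0.185 and 0.197 in edgeR). Cybb, another oxidase subunit, went the other way from Cyba, at -0.46 ± 0.18 (adjusted p = 0.223 in edgeR). Among 18 other selenoproteins and methionine sulfoxide reductases, 9 lay above 0 and 9 below (median -0.024). At an unadjusted p under 0.05 in edgeR, 1 was higher and 3 lower. Selenok, of the endoplasmic reticulum, had a log2 fold change of 0.46 ± 0.16, Selenoi, a phospholipid enzyme, one of -1.46 ± 0.41, and Msrb3, a methionine sulfoxide reductase, one of -0.49 ± 0.18, with edgeR adjusted p-values of 0.192, 0.157 and 0.198. The 7 genes of selenocysteine incorporation had a median of 0.14, with 4 above 0 and 3 below, and 0 at an unadjusted p under 0.05. Of 16 other thioredoxin-fold enzymes, 10 lay above 0 and 6 below (median 0.034), and Txnl4a, a splicing factor with this fold, had a log2 fold change of 0.79 ± 0.18 (adjusted p = 0.132 in edgeR). Glrx5, which acts in iron-sulfur cluster assembly, and Txnl1 had 0.42 ± 0.18 and -0.36 ± 0.15 (adjusted p = 0.25 and 0.236 in edgeR). Of 7 genes of melatonin receptors and synthesis, 3 were tested, all below 0, with a median of -0.33, and the other 4 were not analysed here.

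Markers of the cell types that injured muscle holds were set beside these results. The 12 fibro-adipogenic progenitor markers had a median log2 fold change of -0.72, with 3 above 0 and 9 below, and edgeR called 0. At an unadjusted p under 0.05 in edgeR 8 of them were lower, beside 9.39% of all genes. DESeq2 called 4 of them lower, beside 2.8% of the genes it tested, and limma-voom with sample weights 1, beside 0.609%. All 12 together summed to 1576, 2446 and 2236 CPM in glycerol and 1429, 1498 and 1194 CPM in glycerol+melatonin. The part of these 12 markers in the lower levels of Gpx1, Cat and Gstm1 was not tested. The 11 tested fat cell markers, of a tissue rich in catalase, summed to 1014, 993 and 1071 CPM in glycerol. In glycerol+melatonin they summed to 1229, 726 and 872 CPM (median -0.20). Plin4 and Pnpla2 led these sums, with glycerol means of 434 and 387 CPM. The mean centred log2 CPM of the list varied more, at -0.17, -0.69 and 0.94 in glycerol. It was 0.62, -0.32 and -0.37 in glycerol+melatonin. Cfd alone ranged from 25.4 to 203 CPM in glycerol and from 26.5 to 95.2 CPM in glycerol+melatonin. The part of fat cells in the level of Cat was not tested. The 6 tested red cell markers, of cells rich in Gpx1, Cat and Prdx2, summed to 154, 377 and 266 CPM in glycerol and 337, 239 and 101 CPM in glycerol+melatonin (median -0.17). The other 3 red cell markers listed were not analysed here. The part of red cells in the levels of Gpx1, Cat and Prdx2 was not tested. The 12 muscle fibre markers had a median of -0.27 and the 10 endothelial markers one of -0.01. The macrophage markers had a median of -0.12, with 5 above 0 and 7 below. The 8 Schwann cell markers and 7 tendon markers had medians of -0.37 and -0.61. The 4 tested neutrophil markers were all above 0, with sums of 4.92, 4.21 and 4.51 CPM in glycerol and 5.34, 8.58 and 21.1 CPM in glycerol+melatonin.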

How the data were processed

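Raw counts of reads for each gene in 6 libraries were used as deposited by the authors. HISAT2 2.0 (on mm10), StringTie 1.3.3b, bedtools 2.26.0, DESeq2 1.12.4, Trimmomatic 0.36 and FastQC 0.11.2 are named in the submitters' processing notes. The sources used here do not state the counter, the annotation or how strand and multimapping reads were treated. The smallest gene total was 28, so low genes had been left out of the deposited rows. Symbols and positions came from GENCODE M21 (GRCm38, which mm10 also is; 16260 rows matched). edgeR 4.0.16 in R 4.3.3 tested the 2 groups with TMM scaling, filterByExpr and no covariate, and the scripts were tested on simulated data. Alternatives were other scalings and filters, DESeq2 1.42.0, limma 3.58.1 voom, a transcript length correction, a replicate block and each library left out. Same-numbered libraries of the groups had correlations of deviations of -0.01, -0.011 and -0.049, so the numbers were not taken as pairs. Members were given in full where unadjusted p was under 0.05, the groups did not overlap, the level per length led its class, or they were in a set of best-known genes; up to 3 genes per pathway list were named by lowest p under 0.05. The members and lists were chosen with earlier results of these data known. The exon overlap of 1 member with a neighbouring gene is not reported here.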

Additional observations from a re-analysis of the deposited data

How the results depend on the processing

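The 12 genes called over all genes became 752 with DESeq2, 199 with limma-voom and sample weights, 7 with the transcript length correction, 59 at an adjusted p under 0.10, and between 6 (without glycerol replicate 1) and 27 (without glycerol replicate 3) when libraries were left out in turn, each fit then resting on 2 mice in a group. Replicate numbers did not pair the mice, and the replicate block gave 0 genes, alone and with the length correction, with 2991 genes at an unadjusted p under 0.05 against 3170 without it. Members called were 0 in each edgeR fit at 0.05, 3 with DESeq2, 1 with limma-voom and sample weights, and 1 at an adjusted p under 0.10. No cause of these differences was tested. The median over the members moved to 0.30 with library size alone, -0.073 with the length correction and -0.068 with the length correction and block. Under the same settings the superoxide dismutases had -0.038, -0.086 and -0.12 (from -0.29 to -0.016 with libraries left out), and the glutathione transferases 0.36, -0.12 and -0.12. With library size alone the thioredoxin and glutaredoxin system had 0.35, and NRF2 and KEAP1 0.067. Gpx1, Gpx4, Cat, Gstm1, Txnrd1, Txnip, Mt1 and Mt2 kept their direction in all alternatives run.

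Members that reversed were not called in any setting, and Gpx3 and Hmox1 among them varied widely as libraries were left out. With library size alone these were Prdx3 (0.10), Txn2 (0.17), Gclc (0.23), Gsr (0.047), Gsta4 (0.18), Hmox1 (0.15), Nfe2l2 (0.079) and Keap1 (0.055). With upper quartile factors they were Txn2 (0.013), Gclc (0.027) and Gsta4 (0.02), and with a filter at 1 CPM in 3 libraries Gsta4 (0.0012). With limma-voom and sample weights they were Prdx3 (0.029), Txn2 (0.007) and Gstm2 (-0.0047). With the length correction, alone and with the block, they were Gclc (0.055 and 0.033), Gstm2 (-0.10 in each), Gstp1 (-0.14 in each) and Gstk1 (-0.0026 and -0.011). With libraries left out, Gpx3 ranged from -0.88 to 0.23, Prdx3 from -0.28 to 0.14, Prdx6 from -0.026 to 0.25, Txn2 from -0.22 to 0.10, Gclc from -0.26 to 0.12, Gsta4 from -0.25 to 0.16 and Hmox1 from -0.95 to 0.58. Libraries of a group differed from each other by a chi-square of 66.6 to 182 per degree of freedom over genes, where counting error alone gives about 1.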
